A study of Homo sapiens with 24 samples.

Results

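β-catenin and the proteins that mark it for destruction are encoded by 10 genes that were followed here: CTNNB1, its inhibitor CTNNBIP1, the scaffolds APC and AXIN1, the kinases GSK3A, GSK3B and CSNK1A1, the ubiquitin ligase subunit BTRC, and the tankyrases TNKS and TNKS2. They were chosen by symbol, as non-control probes whose gene name in the array files is 1 of the 10, out of 27274 gene names on the array. HCT-116 is a human colorectal carcinoma cell line with an activating mutation of CTNNB1 and intact APC. The cells were 1 stable clone of HCT-116 that carries the Tet repressor and a vector from which doxycycline induces DN-Tcf4, a Tcf4 without the domain that binds β-catenin, and all groups carry both constructs. There were 4 groups: Ctl without either agent, NaB with sodium butyrate at 5 mM, Doxy with doxycycline at 4 μg/ml, and DoxyNaB with the combination. Exposure to butyrate lasted 17.5 hr, and 6 experiments with 1 array for every group make 24 arrays. Butyrate is a short-chain fatty acid made by gut bacteria and an inhibitor of histone deacetylases. The comparisons address how butyrate changes the transcripts (NaB/Ctl) and how they change when butyrate is added to doxycycline (DoxyNaB/Doxy). In the latter, DN-Tcf4 rises together with the addition of butyrate, as described below. They also address what doxycycline changes on its own (Doxy/Ctl) or on top of butyrate (DoxyNaB/NaB).

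In the canonical Wnt pathway, cytoplasmic β-catenin is bound by the scaffolds Axin and APC, phosphorylated by casein kinase 1α and then by GSK3, recognised by the F-box protein β-TrCP, ubiquitinated and degraded by the proteasome. A Wnt signal stops this destruction, and β-catenin enters the nucleus and drives transcription through Tcf factors. Tankyrases modify Axin with poly(ADP-ribose) and so lead to its degradation. In colorectal tumours the pathway is usually switched on by mutation of APC or of CTNNB1. The arrays measure transcripts, and the activity of this pathway is set largely on proteins, whose amounts and phosphorylation these data do not hold.

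A probe is a stretch of 60 bases that captures labelled cRNA. Of the 13 probes for the 10 genes, 12 were tested, and 11 were well above background on all 24 arrays. Those below are shown because they lie in the protein-coding part of their transcripts, are read from the array files, and are written 5′ to 3′ in the sense of the transcript, with coordinates on NCBI36. The CTNNB1 probe (chr3:41255691-41255750, plus strand) lies near the end of the coding sequence. The APC probe (chr5:112130917-112130976, plus strand) lies near its beginning, and it was the probe not tested. The AXIN1 probe (chr16:278205-279455, minus strand) has its 60 bases spread over 1251 bases of the genome, so it crosses a splice junction, and it lies in the domain through which Axin polymerises. The GSK3B probe (chr3:121065032-121065091, minus strand) lies in the kinase domain. The other probes are identified below by position alone.
CTNNB1: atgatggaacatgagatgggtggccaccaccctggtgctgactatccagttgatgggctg
APC: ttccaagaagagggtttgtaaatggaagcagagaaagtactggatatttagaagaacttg
AXIN1: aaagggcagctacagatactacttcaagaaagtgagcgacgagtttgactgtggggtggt
GSK3B: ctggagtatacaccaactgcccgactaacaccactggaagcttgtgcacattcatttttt

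Butyrate moved most of the 10 genes by less than 2-fold. A level is given on a log2 scale on which 0 is the 75th percentile of that array's signals, and a change is the difference of 2 such levels, fitted by limma with the experiment as a block and called at a Benjamini-Hochberg adjusted p under 0.01 over all probes tested. In NaB/Ctl, 7 genes rose (CTNNB1, CTNNBIP1, APC, AXIN1, GSK3B, TNKS and TNKS2) and 1 fell (GSK3A), while CSNK1A1 and BTRC did not pass. Among all 15142 genes tested, 40.6% were called higher and 29.0% lower in this comparison, so 7 of 10 is above the first share and 1 of 10 below the second. No gene of the 10 passed 2-fold with that p, against 32.4% of all genes. The median of the absolute log2 change was 0.53 over the 10 genes and 0.68 over all genes tested.

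In DoxyNaB/Doxy, 6 genes rose (CTNNBIP1, APC, AXIN1, GSK3B, BTRC and TNKS) and 2 fell (GSK3A and CSNK1A1), while CTNNB1 and TNKS2 did not pass. Among all genes tested, 38.1% were called higher, 30.3% lower, and 31.2% passed 2-fold, which again 0 of the 10 did. The median absolute change was 0.45 over the 10 genes and 0.65 over all genes. These directions are relative to the 75th percentile. With scaling to the array median, the NaB/Ctl changes of CTNNB1, AXIN1, GSK3B and TNKS and the DoxyNaB/Doxy changes of GSK3B and BTRC fell below 0, and with quantile normalization those of APC did. The scaling to the median moved the median NaB/Ctl change of all genes from 0.17 to -0.58. With that scaling 2 of the 10 genes were called in each comparison, both lower. Relative to the median of all genes, 7 of the 10 genes lay above it in NaB/Ctl, all but GSK3A, CSNK1A1 and BTRC. With quantile normalization, the count was again 7, but BTRC lay above the median (by 0.031) and APC below it (-0.29).

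**Figure D1:**
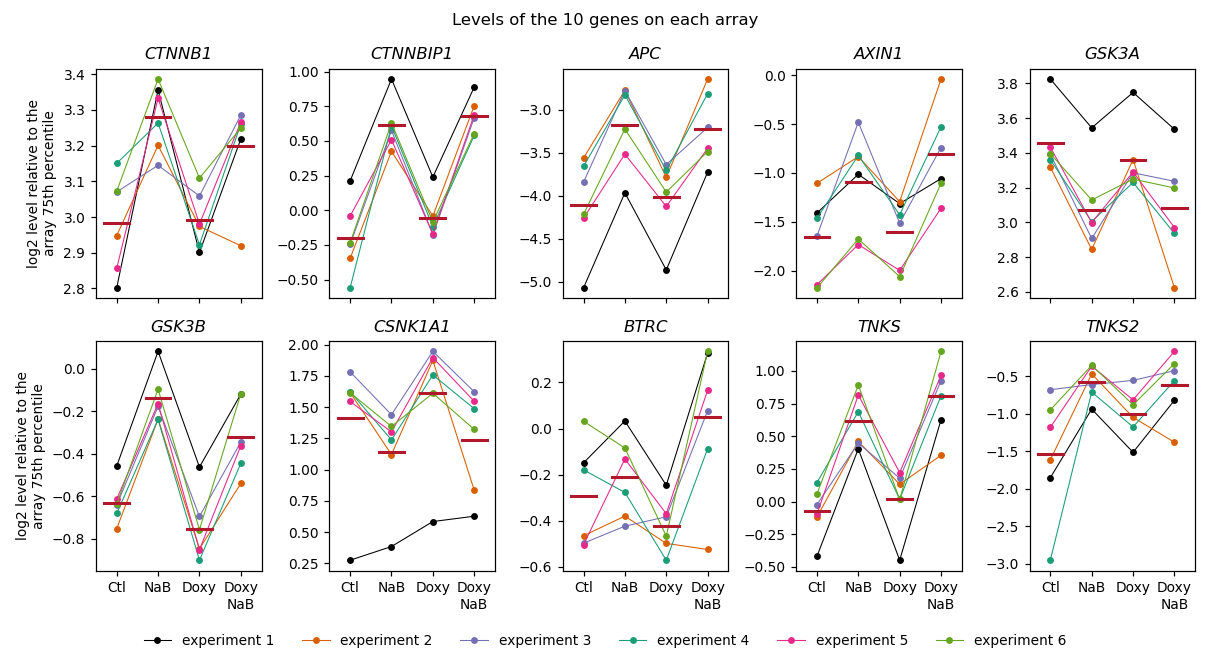
Level of each of the 10 genes (log2 relative to the 75th percentile of the array, vertical axis) on the 24 arrays, by group on the horizontal axis. Points of 1 experiment are joined by a line, and red bars are the means of 6 arrays. Most genes rise from Ctl to NaB and from Doxy to DoxyNaB, GSK3A falls, and experiment 1 lies apart for CSNK1A1 (0.28 to 0.63), APC and GSK3A.

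**Figure D2:**
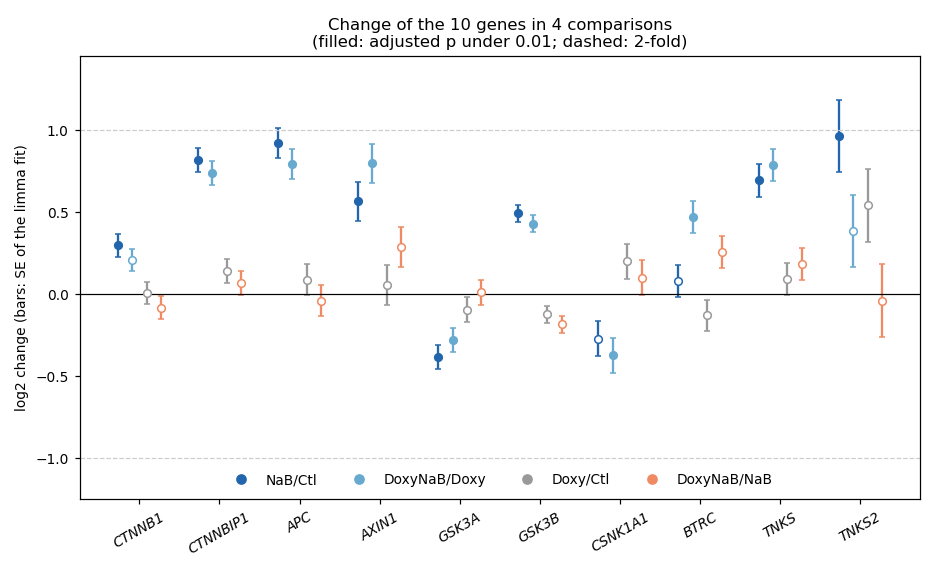
Log2 change of each of the 10 genes (vertical axis) in NaB/Ctl, DoxyNaB/Doxy, Doxy/Ctl and DoxyNaB/NaB, with the standard error of the limma fit as bars. Filled points passed an adjusted p of 0.01, and dashed lines mark 2-fold. Filled points occur in both butyrate comparisons, 8 in each, and none lies beyond the dashed lines.

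CTNNB1 encodes β-catenin, the transcriptional coactivator that the complex destroys and a part of cell-cell junctions. Its probe of highest level (chr3:41256753-41256812) is printed in 10 spots, and the spots were averaged. The level ran from 2.80 over a median of 3.01 to 3.15 on the Ctl arrays and from 3.14 over 3.30 to 3.39 on the NaB arrays. It ran from 2.90 over 2.98 to 3.11 with Doxy and from 2.92 over 3.25 to 3.29 with DoxyNaB. NaB exceeded Ctl in 6 of 6 experiments, although the lowest NaB array lay below the highest Ctl array. The change was 0.30 ± 0.07 (SE, n = 6 pairs), a 1.23-fold rise (adjusted p = 0.000796), and with normexp background correction it missed the threshold (adjusted p = 0.0142). In DoxyNaB/Doxy it was 0.21 ± 0.07, higher in 5 of 6 experiments, with an adjusted p of 0.0110. The exception was experiment 2, whose DoxyNaB array had the highest negative-control signal of all, and without that experiment the change was 0.26 with an adjusted p of 0.00388. The probe printed above gave 0.25 ± 0.07 in NaB/Ctl (adjusted p = 0.00413) and 0.13 ± 0.07 in DoxyNaB/Doxy (adjusted p = 0.105). By the methods' t-test, a paired test of this gene alone, the NaB/Ctl change of CTNNB1 did not pass 0.01 even without adjustment.

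CTNNBIP1 encodes ICAT, a small protein that binds β-catenin and blocks its contact with Tcf factors. Its probe (chr1:9833306-9833365, minus strand) ran from -0.56 over -0.24 to 0.21 with Ctl and from 0.42 over 0.59 to 0.95 with NaB. With Doxy it ran from -0.18 over -0.10 to 0.24, and with DoxyNaB from 0.54 over 0.68 to 0.89. The groups with and without butyrate did not overlap in either comparison. The change was 0.82 ± 0.07 in NaB/Ctl (1.76-fold, adjusted p = 1.09e-08) and 0.74 ± 0.07 in DoxyNaB/Doxy (1.67-fold, adjusted p = 4.4e-08). A second probe (chr1:9830975-9831034) also separated the groups, with changes of 0.76 ± 0.14 and 1.16 ± 0.14. That second value is the only change past 2-fold (2.24-fold, adjusted p = 9.27e-07) among the 12 tested probes in these comparisons, and the DoxyNaB array of experiment 5 stood highest there at 1.49 against 0.34 to 0.88 on the others.

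APC encodes the large scaffold and is mutated in most colorectal tumours. Its probes were the only ones of the 10 genes that missed the test of being well above background on some arrays: the brighter (chr5:112208721-112208780, 10 spots) passed it on 5 of 6 arrays with Ctl, 5 of 6 with NaB and all with doxycycline. Its level ran from -5.07 over -4.03 to -3.56 with Ctl and from -3.96 over -3.02 to -2.77 with NaB. It ran from -4.86 over -3.87 to -3.64 with Doxy and from -3.72 over -3.32 to -2.64 with DoxyNaB. The ranges overlapped because the experiments differed, and butyrate gave the higher value in 6 of 6 experiments of both comparisons. The change was 0.92 ± 0.09 in NaB/Ctl (1.90-fold, adjusted p = 5.78e-08) and 0.79 ± 0.09 in DoxyNaB/Doxy (1.73-fold, adjusted p = 4.33e-07). With normexp background correction the NaB/Ctl change was 0.15, and with quantile normalization it was -0.30 (adjusted p = 0.346), so the direction of the APC change depended on the normalization. The APC probe printed above was well above background on 3 or 4 of 6 arrays of each group and has no test.

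AXIN1 encodes the other scaffold, the component that limits the assembly of the complex in many cells. The level of the probe printed above ran from -2.18 over -1.56 to -1.11 with Ctl, from -1.73 over -0.92 to -0.48 with NaB, from -2.06 over -1.47 to -1.29 with Doxy and from -1.36 over -0.90 to -0.04 with DoxyNaB. Experiments 5 and 6 were lowest in all groups, so the ranges overlapped, and butyrate gave the higher value in each experiment. The change was 0.57 ± 0.12 in NaB/Ctl (1.48-fold, adjusted p = 0.00033) and 0.80 ± 0.12 in DoxyNaB/Doxy (1.74-fold, adjusted p = 8.64e-06). The NaB/Ctl change was 0.21 with normexp (adjusted p = 0.343) and 0.31 with quantile normalization (adjusted p = 0.0265), so neither passed. The difference between both, the interaction, was -0.23 ± 0.17 with an adjusted p of 0.657. In experiments 5 and 6 alone the NaB/Ctl change was 0.46 and in experiments 2 to 4 it was 0.70, and it passed only in the latter. The largest AXIN1 differences were 1.17 in NaB/Ctl (experiment 3) and 1.26 in DoxyNaB/Doxy (experiment 2). The butyrate arrays of these pairs had the 2 highest negative-control signals of all, 161 and 249. Leaving out 1 experiment at a time gave AXIN1 changes of 0.45 to 0.62 in NaB/Ctl and 0.71 to 0.91 in DoxyNaB/Doxy.

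The GSK3 kinases, which phosphorylate β-catenin for recognition by β-TrCP, went opposite ways, except with scaling to the median, where both had negative changes. GSK3B ran from -0.75 over -0.64 to -0.46 with Ctl and from -0.24 over -0.17 to 0.08 with NaB, with no overlap. With Doxy it ran from -0.90 over -0.80 to -0.46 and with DoxyNaB from -0.54 over -0.35 to -0.12. The 6 differences between NaB and Ctl lay between 0.44 and 0.54. The change was 0.49 ± 0.05 in NaB/Ctl (1.41-fold, adjusted p = 8.65e-08) and 0.43 ± 0.05 in DoxyNaB/Doxy (1.35-fold, adjusted p = 5.07e-07), but -0.26 and -0.13 once the array median set the scale. GSK3A (chr19:47426189-47426248, minus strand) ran from 3.32 over 3.39 to 3.82 with Ctl and from 2.84 over 3.00 to 3.54 with NaB. It ran from 3.23 over 3.29 to 3.75 with Doxy and from 2.62 over 3.08 to 3.54 with DoxyNaB. Experiment 1 was highest in each group, and butyrate gave the lower value in 6 of 6 experiments. The level of GSK3A fell by 0.38 ± 0.07 in NaB/Ctl (1.30-fold lower, adjusted p = 0.000146) and by 0.28 ± 0.07 in DoxyNaB/Doxy (1.21-fold lower, adjusted p = 0.00261). Its sign was negative under each scaling, but the NaB/Ctl call was lost with normexp (adjusted p = 0.0547), and the DoxyNaB/Doxy call with normexp (0.0187), with quantile normalization (0.0907) and without experiment 2 (adjusted p = 0.0141), 4 (0.0133) or 5 (0.0146). Without experiment 2 the DoxyNaB/Doxy change of GSK3A was -0.19. Over all 6 experiments the methods' paired t-test gave it an unadjusted p of 0.044.

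CSNK1A1 encodes casein kinase 1α, which places the priming phosphate on β-catenin. Its probe (chr5:148855441-148855500, minus strand) ran from 0.28 over 1.62 to 1.78 with Ctl, from 0.38 over 1.27 to 1.44 with NaB, from 0.58 over 1.82 to 1.95 with Doxy and from 0.63 over 1.40 to 1.62 with DoxyNaB. Experiment 1 gave the lowest value of each group, and in it each butyrate array lay above its counterpart without butyrate, whereas in experiments 2 to 6 it lay below. The change was -0.27 ± 0.11 in NaB/Ctl (adjusted p = 0.0282) and -0.37 ± 0.11 in DoxyNaB/Doxy (1.29-fold lower, adjusted p = 0.00435). The second call was lost when any experiment other than the first was left out, with adjusted p from 0.0115 to 0.0178, and with normexp (0.0145) or quantile normalization (0.0379). Without experiment 2 the DoxyNaB/Doxy change was -0.24. Over all 6 experiments the methods' paired t-test gave that comparison an unadjusted p of 0.0512.

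BTRC encodes β-TrCP1, the F-box protein that recognises phosphorylated β-catenin. Its probe (chr10:103306580-103306639) ran from -0.50 over -0.32 to 0.03 with Ctl and from -0.42 over -0.20 to 0.03 with NaB, which overlapped almost fully. It ran from -0.57 over -0.42 to -0.25 with Doxy and from -0.52 over 0.12 to 0.34 with DoxyNaB, where experiment 2 was the low one. The change was 0.08 ± 0.10 in NaB/Ctl (adjusted p = 0.444) and 0.47 ± 0.10 in DoxyNaB/Doxy (1.39-fold, adjusted p = 0.000257), and the latter missed the threshold with quantile normalization (adjusted p = 0.0162). The interaction was -0.39 ± 0.14 with an adjusted p of 0.202, so the butyrate response of BTRC is not shown to differ with doxycycline.

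The tankyrases both had positive changes. TNKS (chr8:9676494-9676553) ran from -0.42 over -0.06 to 0.15 with Ctl and from 0.40 over 0.57 to 0.89 with NaB, with no overlap. It ran from -0.45 over 0.08 to 0.22 with Doxy and from 0.35 over 0.87 to 1.15 with DoxyNaB, again with no overlap. The change was 0.69 ± 0.10 in NaB/Ctl (1.62-fold, adjusted p = 4.08e-06) and 0.79 ± 0.10 in DoxyNaB/Doxy (1.72-fold, adjusted p = 9.03e-07), while scaling to the median gave -0.056 for NaB/Ctl. TNKS2 (chr10:93614121-93614180) had the widest spread of the 12 tested probes over the Ctl arrays, from -2.96 in experiment 4 over a median of -1.40 to -0.68, against -0.94 to -0.35 with NaB. Its change in NaB/Ctl was 0.97 ± 0.22 (1.95-fold, adjusted p = 0.000712), and 0.71 without experiment 4. The call was lost with quantile normalization (adjusted p = 0.0592), with scaling to the median (0.512), when only the arrays of Ctl and NaB were fitted (0.0103) and by the methods' t-test, a paired test with an unadjusted p of 0.0226. In DoxyNaB/Doxy it was 0.39 ± 0.22 (adjusted p = 0.124), and the interaction of 0.58 ± 0.31 had an adjusted p of 0.496.

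Doxycycline alone called none of the 10 genes. In Doxy/Ctl the adjusted p ran from 0.303 to 0.983 in limma, with 2 genes at an unadjusted p under 0.05 (GSK3B and TNKS2), and 0.555% of all genes were called. In DoxyNaB/NaB it ran from 0.0495 to 0.970, with 3 genes at an unadjusted p under 0.05 (AXIN1, GSK3B and BTRC), and 2.72% of all genes were called. GSK3B was lower with doxycycline in 6 of 6 experiments both without butyrate (-0.12 ± 0.05) and with it (-0.18 ± 0.05, adjusted p = 0.0495). No gene passed the interaction, where the adjusted p ran from 0.202 to 0.862, with BTRC alone at an unadjusted p under 0.05, and 1.35% of all genes were called. By the methods' t-test without adjustment, 0, 1 and 0 of the genes passed 0.01 in these 3 comparisons. A p that misses the threshold does not show that the levels are alike: the standard errors of 0.05 to 0.22 in Doxy/Ctl leave small changes undetectable, and most of all for TNKS2.

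The induced gene itself was checked with 3 probes for TCF7L2, the gene of Tcf4. The probe at chr10:114901475-114901534, well above background on all 24 arrays, rose by 2.96 on the log2 scale in DoxyNaB/NaB, higher in 6 of 6 experiments. Its change in Doxy/Ctl was -0.17 with an adjusted p of 0.921, which does not show that the levels were alike. The same probe rose by 4.04 in DoxyNaB/Doxy (limma, adjusted p = 1.07e-08), higher in 6 of 6 experiments. In the paper's western blot, DN-Tcf4 was minimal with doxycycline alone and high with both agents. DoxyNaB/Doxy and the interaction thus hold butyrate and this rise together, and their shares cannot be told apart. The probe at chr10:114915968-114916027 also rose in DoxyNaB/NaB, but it was well above background on only 1 of 6 arrays with Ctl, 3 of 6 with NaB and 3 of 6 with Doxy, against 6 of 6 with DoxyNaB, so its size is not given. The probe at chr10:114714311-114714370, well above background on 4 of 6 arrays with DoxyNaB and on all others, fell by 1.25 in DoxyNaB/NaB. Whether the signal of each probe comes from the construct or from the cells' own TCF7L2 was not tested.

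The genes that work around the complex were taken from a list of 51, of which 50 had a tested probe (PYGO1 had none). In NaB/Ctl, 16 rose, 20 fell and 14 did not pass, while 40.6% of all genes were called higher and 29.0% lower. Of these, 7 rises and 5 falls were over 2-fold, against 32.4% of all genes. In DoxyNaB/Doxy, 17 rose and 21 fell, with 6 and 4 over 2-fold, where the shares of all genes were 38.1%, 30.3% and 31.2%. The split depended on the scaling, and with scaling to the median 4 were higher and 30 lower in NaB/Ctl and 6 and 28 in DoxyNaB/Doxy. Their median absolute log2 change in NaB/Ctl, 0.57, was close to the 0.53 of the 10 genes, and their median change was -0.17 against 0.53.

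Among these other genes the highest rises in NaB/Ctl were in APC2, PPP2R5B, NKD1 and FRAT1. APC2, a paralog of APC (chr19:1424181-1424240), ran from -3.54 to -2.98 with Ctl and from 0.18 to 0.49 with NaB, a rise of 3.58 ± 0.10 on the log2 scale (adjusted p = 2.89e-15), and it rose by 3.68 (12.8-fold) in DoxyNaB/Doxy. PPP2R5B, a regulatory subunit of the phosphatase PP2A, rose 3.68-fold and NKD1, which binds Dishevelled, 3.15-fold. FRAT1, which binds and inhibits GSK3, also rose and is among the rises over 2-fold counted above. Its probe passed the background test on only 3 of 6 arrays with Ctl, 5 with NaB and 4 with Doxy. It was tested only because it passed on all 6 arrays with DoxyNaB, so the size of its rise is not given. A second FRAT1 probe was not tested. The largest falls were in CUL1 (3.41-fold lower) and RBX1 (2.52-fold lower), the cullin and RING subunits that work with β-TrCP, in CSNK1D (2.18-fold lower), a casein kinase, and in SMARCA4 (2.17-fold lower), a chromatin remodeller that binds β-catenin. CUL1 ran from 0.34 to 1.20 with Ctl and from -1.77 to -0.0014 with NaB, and its fall was smaller in experiments 2 to 4 than in the others. The 8 genes of these rises and falls were chosen among genes that changed the same way in 6 of 6 experiments, so that agreement is no added support. All 8 kept their sign under each of the 5 scalings. Among all genes, 40.6% were called higher and 29.0% lower. By role, 5 of 9 genes of the ubiquitin system (ligases, their partners and USP7) fell and 1 rose (SKP1, 1.42-fold). Of 9 kinases 5 fell and 4 rose, and of 9 PP2A genes 2 fell and 2 rose. With scaling to the median these counts were 8 falls and 0 rises, 5 and 0, and 6 and 1. Of the 6 genes of Dishevelled and GSK3 inhibitors, 4 fell and 2 rose, and with scaling to the median 4 fell and 1 rose. Among the falls, DVL1, DVL2 and DVL3 fell by 0.59, 0.89 and 0.97 on the log2 scale, with the same sign under each scaling.

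**Figure D3:**
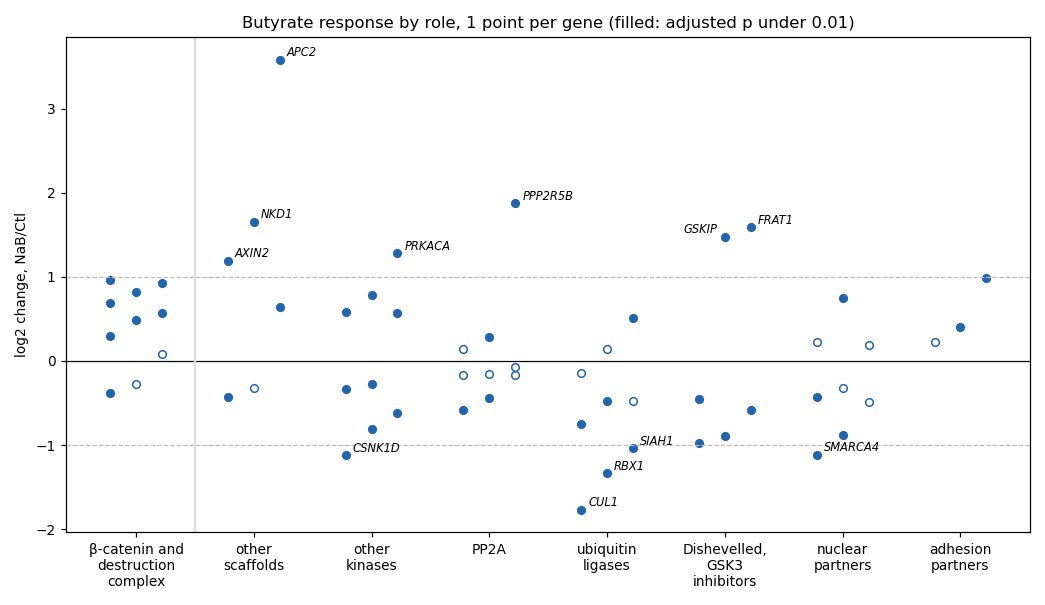
Log2 change in NaB/Ctl (vertical axis) of the 10 genes and of 50 other pathway genes by role (horizontal axis), with 1 point per gene and filled points for an adjusted p under 0.01. Genes beyond the dashed 2-fold lines are named, and none of the 10 is among them, while APC2 (3.58) and CUL1 (-1.77) are the extremes.

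The paralogs of the 10 genes did not share 1 pattern. CSNK1E fell by 0.81 in NaB/Ctl (adjusted p = 2.78e-06), as CSNK1D did. FBXW11, which encodes β-TrCP2, had a change of -0.15 (adjusted p = 0.143). JUP, which encodes the β-catenin paralog plakoglobin, rose by 0.41 ± 0.09 (adjusted p = 0.000739), beside 0.30 ± 0.07 for CTNNB1, and both had negative values with scaling to the median (-0.34 for JUP).

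AXIN2, the paralog of AXIN1 and a target gene of the pathway that feeds back on it, was the single pathway gene past the interaction test. Its level (chr17:60955851-60955910, minus strand) ran from -0.34 over -0.20 to 0.40 with Ctl and from 0.53 over 0.98 to 2.10 with NaB. It ran from -1.05 over -0.87 to 0.01 with Doxy and from -1.75 over -1.56 to -1.04 with DoxyNaB. AXIN2 rose by 1.19 ± 0.09 in NaB/Ctl and fell by 0.76 ± 0.09 in DoxyNaB/Doxy. Each change held in 6 of 6 experiments and kept its sign under the 5 scalings. The interaction was 1.95 ± 0.13 (adjusted p = 8.23e-08), and that of AXIN1, -0.23, did not pass. The AXIN2 interaction was not called with scaling to the median. AXIN2 was also the single pathway gene called in Doxy/Ctl (-0.58 ± 0.09, adjusted p = 0.00289) and, with DVL1, 1 of 2 called in DoxyNaB/NaB (-2.53 ± 0.09, adjusted p = 2.63e-11). DVL1, named after its value was seen, was higher in DoxyNaB than in NaB by 0.36 ± 0.08 (adjusted p = 0.00960). The AXIN2 call in Doxy/Ctl was lost when any 1 of experiments 2 to 6 was left out, and the DVL1 call when any experiment other than the second was.

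**Figure D4:**
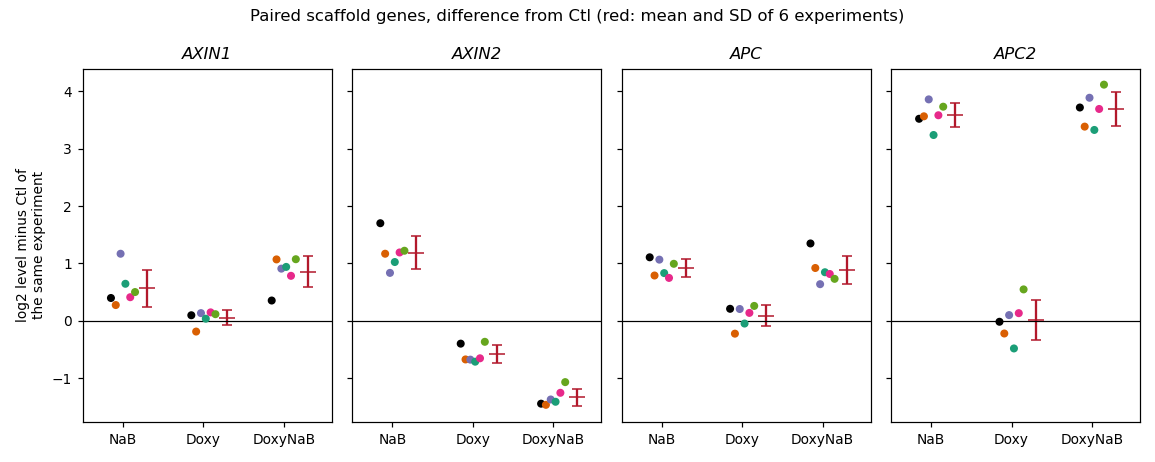
Difference of the log2 level from the Ctl array of the same experiment (vertical axis) for AXIN1, AXIN2, APC and APC2 in NaB, Doxy and DoxyNaB, with points from left to right for experiments 1 to 6 and red bars for the mean and SD. AXIN1 and APC are above 0 in NaB and DoxyNaB, APC2 lies over 3 in both, and AXIN2 is above 0 in NaB and below it in Doxy and DoxyNaB.

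After centring each gene on its experiment, the 2 genes outside the 10 whose levels over the 24 arrays were most like those of CTNNB1 were AGGF1 (Pearson r = 0.958) and ABHD1 (0.949). Among the 10 genes, CTNNB1 was most like TNKS (0.857) and GSK3B (0.827) and ran opposite to GSK3A (-0.567). These arrays share the butyrate contrast and the array scaling, and the values are descriptions. The promoters of 8 of the 10 genes (10 promoters, 250 bases before to 50 after the start, RefSeq on GRCh38.p14) were searched on both strands for the Tcf motif CTTTGAT and its reverse complement ATCAAAG. It was in 0 of the 10 promoters and in 2.62% of all 35116 promoters, which says only that these letters are not in that window.

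**Figure D5:**
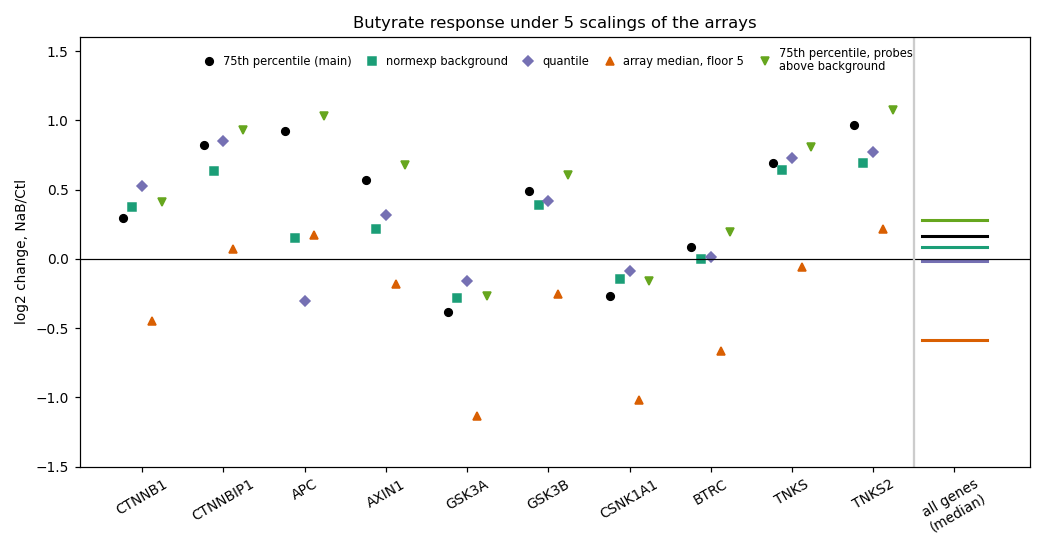
Log2 change in NaB/Ctl (vertical axis) of the 10 genes under 5 scalings of the arrays, with the median change of all genes under each scaling as bars at the right. Scaling to the array median lowers every value, and the median of all genes with it, to -0.58, while APC is the gene that turns sign under quantile normalization (-0.30).

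The arrays differed in quality with the experiment, and in experiments 2 to 4 their negative controls also differed with butyrate. Between 78.3% and 88.1% of non-control spots were well above background in experiments 2 to 4, and between 52.5% and 62.4% in experiments 1, 5 and 6. The net signal of the negative controls in experiments 2 to 4 was 115, 161 and 112 with NaB against 76.9, 68.4 and 63.1 with Ctl. It was 249, 69.1 and 111 with DoxyNaB against 77.8, 68.7 and 79.6 with Doxy. Without the 2 arrays of highest signal, 9 and 8 of the 10 genes were called in NaB/Ctl and DoxyNaB/Doxy. Whether this signal bears on the rises of dim probes was not otherwise tested. Experiments 2 to 6 had all 4 groups on 1 slide each, but in experiment 1 the arrays with and without butyrate were on different slides, and in it treatment and slide cannot be told apart. Without experiment 1, 9 genes of the 10 were called in NaB/Ctl and 8 in DoxyNaB/Doxy. Within experiments 2 to 4 and within experiments 5 and 6, which were scanned apart, 5 and 5 were called in NaB/Ctl, all of them rises. The epithelial markers CDH1, KRT8, KRT18 and KRT19 were well above background on all 24 arrays, EPCAM on 22 and VIL1 on 5. In these counts a spot left out as an outlier scores as not above background. This holds for EPCAM on the Ctl and DoxyNaB arrays of experiment 1 and for COL1A1 on the NaB array of experiment 4. Of 10 markers of other cell types, DES was well above background on all 24 arrays, COL3A1 on 0 and the others on 7 to 23, and whether this bears on any result was not tested.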

How the data were processed

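Labelled cRNA of 24 samples was hybridised to 1-colour Agilent arrays. The deposited files hold the spot intensity from Agilent Feature Extraction 9.5.3.1, whose processed signal, per the file headers, was corrected for background and for spatial trends on each array, with no scaling between arrays; coordinates are on NCBI36. The authors analysed the values in GeneSpring GX with a paired test.

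Control and outlier spots were left out (359 to 795 outliers per array), the log2 of the processed signal was set relative to the 75th percentile of the array (380.2 to 1323 signal units), and spots of a probe were averaged. A probe was tested when well above background (multiplier 13) on all 6 arrays of a treatment, which kept 18962 of 34127 probes for 15142 genes; the tested probe with the highest mean stood for its gene. R 4.3.3 and limma 3.58.1 (lmFit, eBayes) fitted 4 treatments with the experiment as a block over 24 arrays, with Benjamini-Hochberg adjustment over all probes. The interaction is NaB/Ctl minus DoxyNaB/Doxy. The pairing follows from the methods' paired test and from the shared slides. Levels centred on their group correlated between arrays of an experiment with r from 0.219 to 0.853 in 35 of 36 pairs, and with -0.224 for NaB and DoxyNaB of experiment 3. The labels number the 6 experiments, and the paper calls them biological replicates. Signal over background and the number of arrays limit the precision.

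The rule for named genes was: all 10 members, the 4 largest rises and falls in NaB/Ctl of the other pathway genes past 2-fold and an adjusted p of 0.01 that went 1 way in 6 of 6 experiments, those past the interaction, paralogs of members, and the 3 genes most like CTNNB1, of which 1 is not reported here. SKP1, DVL1, DVL2 and DVL3 were named outside this rule. The members and lists were chosen with earlier results of these data known. The alternatives were background correction, scaling, filter, block, test, threshold, gene summary and subsets of arrays. The fit was tested on simulated data. Tables were made with pandas 2.3.3 and numpy 2.4.6 and plots with matplotlib 3.10.9 (Python 3.11.15).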

Additional observations from a re-analysis of the deposited data

Results flagged for a closer look

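In each group of 6 arrays, the highest and the lowest level of each of the 12 tested probes was compared with its neighbours, 48 groups in all, and 11 values had a gap to their neighbour beyond Dixon's critical share of the range; chance does this in about 1 in 20 groups. The 11 values came from 4 arrays, and 10 of them from 3 arrays of experiment 1 (Ctl, NaB and Doxy), so they are not independent of each other. The CSNK1A1 levels there were 0.28 (Ctl), 0.38 (NaB) and 0.58 (Doxy), against 1.55 to 1.78, 1.12 to 1.44 and 1.61 to 1.95 on the other arrays of these groups. The CTNNB1 probe in the coding sequence had 2.03, 2.38 and 2.02, against 2.61 to 2.86, 2.87 to 3.13 and 2.62 to 2.89. GSK3A had 3.82 (Ctl) and 3.75 (Doxy), against 3.32 to 3.43 and 3.23 to 3.36. On the Doxy array of experiment 1, CTNNBIP1 had 0.24 against -0.18 to -0.04 and TNKS had -0.45 against 0.02 to 0.22. The remaining value was on the DoxyNaB array of experiment 2, where CTNNB1 had 2.92 against 3.22 to 3.29. The negative controls of that array had the highest net signal of all, 248.9, against 161 on the NaB array of experiment 3 and 48.4 to 115 on the other 22 arrays.

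The butyrate response of AXIN2 differed between cells without and with doxycycline by 1.95 on the log2 scale (limma interaction, adjusted p = 8.23e-08), with the same direction in 6 of 6 experiments.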

How the results depend on the processing

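The counts of called genes moved with the scaling and with the number of arrays, and signal over background limits the dim probes, APC and FRAT1 above all. Of the 10 genes, the 8 called in NaB/Ctl became 4 with normexp, 5 with quantile normalization, 2 (both falls) with scaling to the median, 5 with the methods' t-test adjusted, 5 in experiments 2 to 4, 5 in experiments 5 and 6, and 0 with 2-fold as well. The 8 in DoxyNaB/Doxy became 5, 5, 2, 5, 5 and 0 under the same alternatives (6 in experiments 5 and 6), and 5 with no replicate block, under which 6 were called in NaB/Ctl; the pairing by experiment changed no other count of the 10 genes. In DoxyNaB/NaB 1 gene (GSK3B) passed at an adjusted p of 0.05 and 1 by the methods' t-test unadjusted. Leaving out 1 experiment gave 8 to 9 and 6 to 8 genes in the butyrate comparisons and 0 to 0 in the others.

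Signs of called changes turned with scaling to the median for CTNNB1 (-0.45), AXIN1 (-0.18), GSK3B (-0.26) and TNKS (-0.056) in NaB/Ctl and for GSK3B (-0.13) and BTRC (-0.088) in DoxyNaB/Doxy, where all genes shifted by a median of -0.58 and -0.45, and with quantile normalization for APC (-0.30 and -0.037); the cause for APC was not tested. Uncalled changes turned sign 2, 2, 11, 14 and 14 times over NaB/Ctl, DoxyNaB/Doxy, Doxy/Ctl, DoxyNaB/NaB and the interaction.

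Of the other pathway genes, the 36 called in NaB/Ctl became 22 in experiments 5 and 6 and 12 with 2-fold as well. The 38 in DoxyNaB/Doxy became 24 in experiments 2 to 4, 25 in experiments 5 and 6 and 10 with 2-fold as well. The 1 gene in Doxy/Ctl (AXIN2) became 0 with normexp, quantile normalization, scaling to the median, no filter, no replicate block, only the arrays compared, the adjusted t-test, either subset of experiments or 2-fold as well, 2 at an adjusted p of 0.05 and 4 by the unadjusted t-test. The 2 in DoxyNaB/NaB became 1 with normexp, scaling to the median, no filter, no replicate block, only the arrays compared, either t-test, either subset or 2-fold as well. The interaction lost its 1 gene (0 called) with scaling to the median, the adjusted t-test and experiments 5 and 6. Leaving out 1 experiment gave 34 to 36, 36 to 38, 0 to 1, 1 to 2 and 1 to 1 genes.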
